A study of Daphnia magna with 9 samples.

Results

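The genes described here are 8 genes of the water flea Daphnia magna that the study listed as carrying regions of raised DNA methylation in starved wild-type daphnids, as lower in expression in the starved wild type and as not changed in the DNMT3.1 mutant. They were found by the gene IDs of that list, and all 8 were present among the 42462 gene IDs of the expression table. They carried 9 of its 47109 features. Ran had a second feature, which held 3 reads in 1 starved wild-type library and 0 in the other libraries, and it failed the filter on low counts. The other 8 features, 1 for each gene, were among the 18675 features tested. Methylation was not measured in these libraries and the methylated regions come from an earlier study, so the expression of the genes is all that is reported. The study that made these libraries picked the 8 by expression from a longer set of genes with raised methylation. Because only these 8 had the pattern, it proposes that DNMT3.1 may have no important role in DNA methylation under starvation. The marks of lower in wild type and not changed in mutant rest on expression in daphnids of these conditions. The low level of the genes in the starved wild type and their small change with food in the mutant are therefore not independent evidence of either pattern. The comparison behind each mark is not spelled out by the study, which also drew on nutrient-rich wild-type libraries from another experiment that are not analysed here.

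RNA was taken from whole female daphnids at day 12, around the second clutch, after the eggs were removed. The 9 libraries held 5 pooled daphnids each. They fell into 3 groups of 3 libraries, namely starved wild type of the NIES strain, starved DNMT3.1 mutant and nutrient-rich DNMT3.1 mutant. Starved daphnids were given 8-fold less Chlorella than nutrient-rich ones. The mutant is 1 line from a single founder, made with the CRISPR/Cas system, and it carries frameshift indels with premature stops on both alleles of DNMT3.1, a relative of the de novo DNA methyltransferases that lacks most of the catalytic motifs. Every mutant value thus belongs to 1 line. Daphnids were kept singly and each treatment was sampled in triplicate. The p-values cover no more than how far these pools of 1 line or strain differed. In libraries of whole bodies, fewer cells of a type and less RNA per cell cannot be told apart.

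DNA methylation in arthropods lies mostly within gene bodies, above all in genes that are active in most tissues, and its relation to the level of the transcript is not a simple one. Methylation is copied at cell division by DNMT1 and set anew by enzymes of the DNMT3 family. The 8 genes belong to basic cell functions. SMC2 is a core subunit of condensin, which compacts chromosomes for mitosis. The gene named by the study as an SHC SH2 domain-binding protein has relatives in vertebrates that bind the adaptor SHC and act at the midbody in cytokinesis. Ran is the small GTPase that gives nuclear transport its direction and also helps to build the spindle. The gene named cell growth-regulating nucleolar protein (a conserved protein in the study's list) is annotated with DNA binding. HBS1-like protein belongs to the family of translational GTPases, and its relative in yeast rescues stalled ribosomes. The study listed the same gene ID as release factor eRF3, whereas the expression table gives the name ERF3A to another gene (Dapma7bEVm005531t1), so the name HBS1-like is used here. The homolog of surfeit locus protein 4 (SURF4) is annotated as a membrane protein, and SURF4 in mammals is a cargo receptor for export from the endoplasmic reticulum. PEX5 is the receptor that brings proteins with the PTS1 signal into peroxisomes. Upstream stimulatory factor (USF) is a transcription factor with a basic helix-loop-helix zipper domain. The SHC SH2 domain-binding protein and USF have no name in the expression table and are called by the study's names. The feature IDs placed the genes on 8 different scaffolds. Their coordinates, exons and sequences are not reported here.

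The libraries held 9270993 to 11806614 counted reads. Levels are counts scaled to a library of common size (CPM) after correction by TMM, a method that sets libraries to a common level by their less variable genes. TMM factors were 1.01 to 1.13 in the starved libraries and 0.749 to 0.928 in the nutrient-rich mutant. Nutrient-rich mutant replicate 2 stood apart. Its 10 most abundant features took 19.5% of its reads, against 8.6% to 12.9% elsewhere, and its correlation with the other libraries of its group was 0.895 to 0.91. Several of the counts of calls, medians and correlations that rest on the nutrient-rich mutant are therefore also given without it. DNMT3.1 mRNA (Dapma7bEVm006722t1) measured 79.2 to 111 CPM in starved wild-type libraries, 40 to 87.6 CPM in starved mutant libraries and 4.4 to 10.8 CPM in nutrient-rich ones. DNMT1 (Dapma7bEVm005001t1) measured 8 to 13.2 CPM in starved wild-type libraries, 15.5 to 30 CPM in starved mutant libraries and 16.5 to 26.4 CPM in nutrient-rich ones. DNMT3.2 (Dapma7bEVm011900t1) ranged from 1.04 to 2.84 CPM over all libraries. Frameshift alleles need not lower the transcript, so the level of DNMT3.1 does not check the genotype labels.

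Compared with other genes, the 8 genes were mostly well expressed. On the length-corrected RPKM scale, their mean level over the 9 libraries ran from 4.73 for the SHC SH2 domain-binding protein to 316 for the SURF4 homolog, with Ran next at 95.3. The median of the 8 was 18.5 RPKM, against 6.29 over all features tested. USF (25.1), HBS1-like protein (20.8), the nucleolar protein (16.2) and PEX5 (11) lay between these. SMC2 (6.47) and the SHC SH2 domain-binding protein fell near the middle of all features, at the percentiles 50.6 and 43.4. The spread within groups, as the SD of log2 CPM, had a median of 0.226 over the 8 genes and of 0.356 over all features. More abundant genes also have less counting error. Among the 500 features nearest in level, the spread of the 8 genes fell between the percentiles 19.2 (Ran) and 86.2 (USF), with 4 genes above the middle and 4 below.

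**Figure D1:**
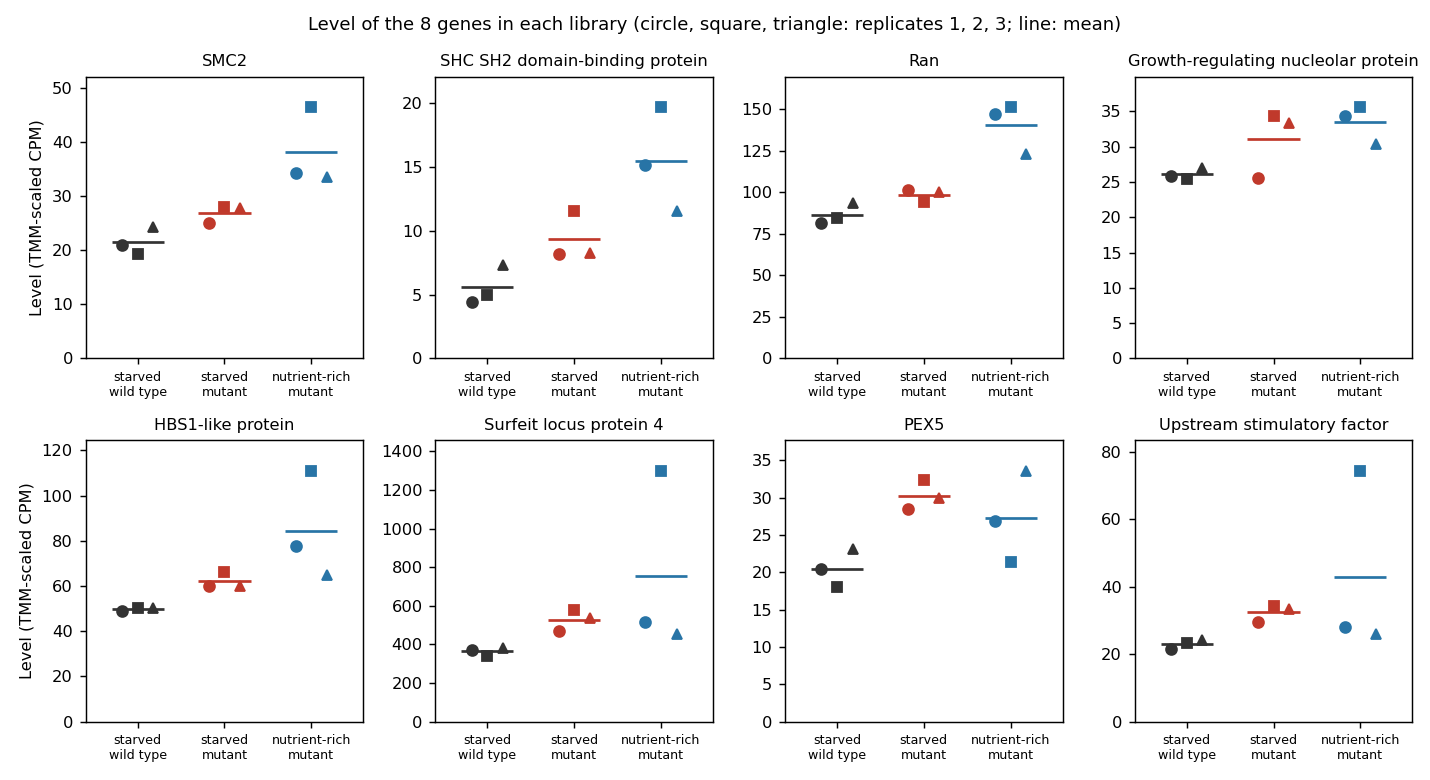
Level of each of the 8 genes (TMM-scaled CPM, linear axes from 0) in the 9 libraries. Each point is 1 library of 5 pooled daphnids and the lines are group means. The starved wild type had the lowest mean in all 8 panels, and the square of the nutrient-rich mutant, replicate 2, lies far above its group in SURF4 (1300 CPM) and USF (74.4 CPM).

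The starved wild type had the lowest mean of the 3 groups for 8 of 8 genes, a position that 30.2% of all features tested shared. The order was starved wild type, starved mutant, nutrient-rich mutant for 7 genes. PEX5 was the exception, with its highest mean in the starved mutant. For 2 of the 7 genes this order rested on nutrient-rich mutant replicate 2. The mean of the other libraries of that group was 486 CPM for the SURF4 homolog and 27.1 CPM for USF, below the starved mutant means of 528 and 32.4 CPM. For PEX5 that mean was 30.2 CPM, the same to 3 digits as in the starved mutant. For 6 genes all 3 wild-type libraries lay below all 6 mutant libraries, as they did for 4.88% of all features. Since the list was made of genes low in the starved wild type, these counts describe the list and do not test it.

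The first comparison set starved mutants beside starved wild-type daphnids. The list was chosen for a low level in the starved wild type, so higher values in the starved mutant were in part built in. The counts below therefore describe the list and do not test it. All 8 genes had a higher estimate in the starved mutant, by 1.14-fold for Ran to 1.68-fold for the SHC SH2 domain-binding protein, an estimate above 0 that 49.7% of all features shared. None was called (0 of 8), a call being an edgeR p under 0.05 after Benjamini-Hochberg adjustment together with a fold change of 1.5 or more. Over all features, 7.16% were called in either direction and 2.92% as higher in the mutant. At an unadjusted p under 0.05 the genes numbered 2, PEX5 and the SHC SH2 domain-binding protein, against 7.56% of all features on the higher side. DESeq2 called 0 genes (4.22% of all features as higher). limma-voom with sample quality weights called 1, the SHC SH2 domain-binding protein (8.96% of all features called as higher by that tool), and put all 8 at an adjusted p under 0.05 without the fold limit, where it put 17.8% of all features as higher. The median log2 fold change of the 8 genes was 0.41 and that of all features was 0. The libraries of the 2 groups did not overlap for 7 of the 8 genes, against 20.1% of all features on the higher side, and the exception was the nucleolar protein.

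Among the genes of the dividing cell, the SHC SH2 domain-binding protein had the widest relative range. It (Dapma7bEVm004172t1) measured 4.39, 5 and 7.32 CPM in the starved wild type, 8.16, 11.6 and 8.29 in the starved mutant and 15.2, 19.7 and 11.6 in the nutrient-rich mutant. Every starved mutant library was above every wild-type library, but the counts were low, from 43 to 157 reads. Its log2 fold change between the starved groups was 0.75 ± 0.28 (SE, 3 libraries each), with an adjusted p of 0.169 (edgeR).

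SMC2 (Dapma7bEVm003001t1) measured 21, 19.2 and 24.3 CPM in the starved wild type, 25, 27.9 and 27.8 in the starved mutant and 34.2, 46.4 and 33.6 in the nutrient-rich mutant. The 3 groups did not overlap, although the highest wild-type library lay just below the lowest starved mutant library. The log2 fold change between the starved groups was 0.32 ± 0.17 (adjusted p = 0.342, edgeR).

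Ran (Dapma7bEVm002983t1) measured 81.2, 84.4 and 93.3 CPM in the starved wild type, 101, 94 and 100 CPM in the starved mutant, and 147, 151 and 123 CPM in the nutrient-rich mutant. On this TMM-scaled level the starved groups lay close together and the nutrient-rich mutant stood above both. In RPKM, which is not scaled by TMM, Ran measured 77.8, 78.4 and 84.4 in the starved wild type. There the starved mutant (103, 93.7 and 102) and the nutrient-rich mutant (123, 93.9 and 102) overlapped. Ran had the smallest estimate of the 8 between the starved groups, 0.19 ± 0.12 on the log2 scale (95% interval -0.09 to 0.47).

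The nucleolar protein and HBS1-like protein are described next. The nucleolar protein (Dapma7bEVm005181t1) measured 25.9, 25.4 and 27 CPM in the starved wild type, 25.6, 34.3 and 33.4 in the starved mutant and 34.4, 35.6 and 30.4 in the nutrient-rich mutant. Starved mutant replicate 1 lay among the wild-type libraries, so the starved groups overlapped (log2 fold change 0.25 ± 0.15).

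HBS1-like protein (Dapma7bEVm001440t1) measured 49, 50.4 and 50.4 CPM in the starved wild type, the closest triplet among the 8 genes. It measured 60, 66.3 and 59.8 in the starved mutant and 77.8, 111 and 64.7 in the nutrient-rich mutant. The starved groups did not overlap, yet the log2 fold change of 0.31 ± 0.19 did not pass (adjusted p = 0.426, edgeR). For each gene the fit shares 1 estimate of spread over all 9 libraries, the scattered nutrient-rich ones included. With only the 2 starved groups in the fit, 4 of the 8 genes had an adjusted p under 0.05 (10.5% of all features, as higher). Of these, 0 also reached the fold limit of 1.5 (6.57% of all features). Without nutrient-rich mutant replicate 2 these numbers were again 4 (10.1% of all features) and 0 (6.23%).

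The SURF4 homolog (Dapma7bEVm010768t1) measured 370, 341 and 384 CPM in the starved wild type, 471, 577 and 538 in the starved mutant and 515, 1300 and 456 in the nutrient-rich mutant. The starved groups did not overlap, and nutrient-rich mutant replicate 2 was at 2.68 times the mean of the other libraries of its group. USF (Dapma7bEVm004398t1) had a like shape. It measured 21.5, 23.4 and 24.3 CPM in the starved wild type, 29.5, 34.2 and 33.5 in the starved mutant and 28.1, 74.4 and 26.1 in the nutrient-rich mutant, where replicate 2 was at 2.75 times the mean of the others. Between the starved groups the log2 fold changes were 0.53 ± 0.35 for the SURF4 homolog (adjusted p = 0.486) and 0.49 ± 0.36 for USF (adjusted p = 0.54, edgeR).

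PEX5 (Dapma7bEVm000396t1) measured 20.4, 18 and 23.1 CPM in the starved wild type, 28.4, 32.3 and 29.9 in the starved mutant and 26.9, 21.4 and 33.6 in the nutrient-rich mutant. The starved groups did not overlap and the nutrient-rich libraries spanned both. PEX5 had the smallest p of the 8 between the starved groups (log2 fold change 0.56 ± 0.18, adjusted p = 0.114, edgeR), and its level in nutrient-rich mutant replicate 2 was 0.707 times the mean of the others in CPM. The other 7 genes were above that mean in CPM, while in RPKM, which was not scaled by TMM, the nucleolar protein (0.808 times) and Ran (0.836 times) were below it too.

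**Figure D2:**
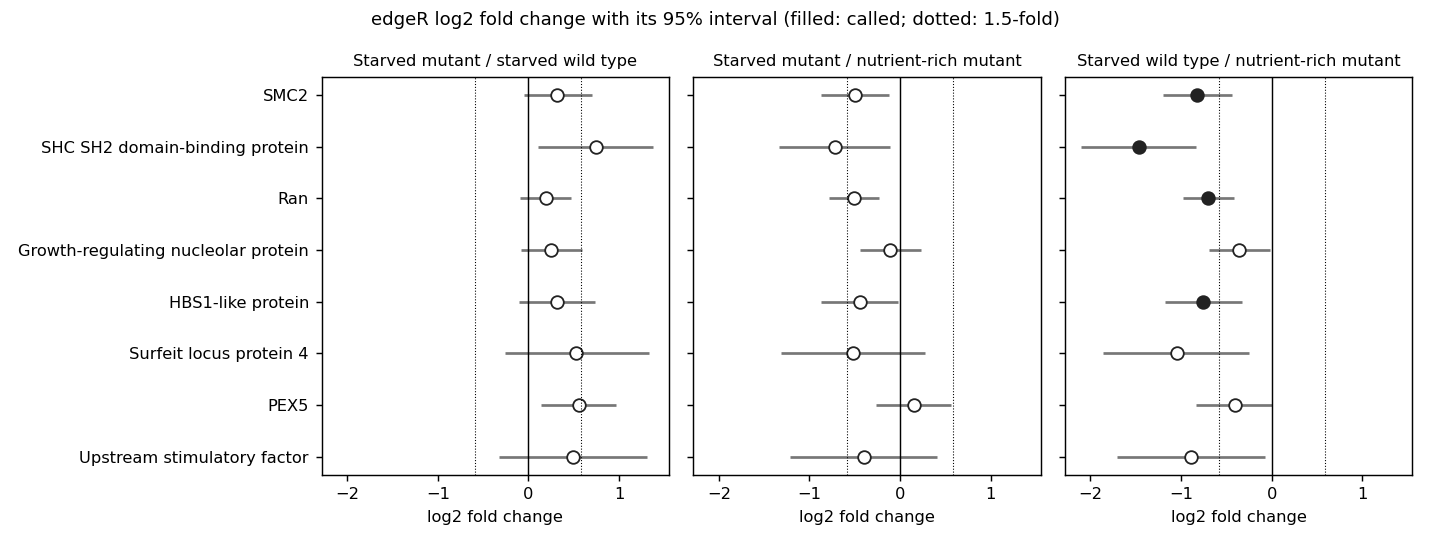
Log2 fold changes of the 8 genes from edgeR in the 3 comparisons (points) with 95% intervals (bars), where filled points were called and dotted lines mark a 1.5-fold change. No gene was called in the comparisons of the starved mutant, and 4 were called as lower in the starved wild type than in the nutrient-rich mutant.

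The second comparison asked how food changed the genes within the mutant line. Here the list itself was chosen for no change, so the count of 0 of 8 called (23.1% of all features in either direction, 12% as lower in starved mutants) is printed as a description only. The estimates were lower in the starved mutant for 7 genes and higher for PEX5 (45.8% of all features were higher), with a median log2 fold change of -0.47 against -0.07 over all features. The estimates ran from -0.72 ± 0.27 for the SHC SH2 domain-binding protein to 0.15 ± 0.18 for PEX5. Ran (-0.51 ± 0.12) and SMC2 (-0.5 ± 0.17) were the genes whose libraries did not overlap in CPM (20.3% of all features on that side). In RPKM the mutant groups overlapped for both genes. Ran had an adjusted p of 0.0163 (edgeR), but its fold of 1.42 was under the limit of 1.5.

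These directions depended on the scaling and on 1 library. The study scaled by library totals. With that scaling the median of the 8 genes was -0.07 while the median of all features was 0.30, and the estimates for the nucleolar protein (0.26) and USF (0.03) turned positive. Ran then stood at -0.14 (adjusted p = 0.454, edgeR). Without nutrient-rich mutant replicate 2 the median was -0.13, the SURF4 homolog stood at 0.12 and USF at 0.25. Ran, SMC2, HBS1-like protein and the SHC SH2 domain-binding protein kept a negative estimate in all 18 alternatives tried. Some of these estimates were small, the highest being -0.09, -0.06, -0.04 and -0.24 in that order. Leaving out nutrient-rich mutant replicate 3 left 2 genes called as lower in the starved mutant, Ran and HBS1-like protein (11.2% of all features). Over all features, library totals gave median log2 fold changes of 0.10, 0.30 and 0.23 in the 3 comparisons, where TMM gave 0, -0.07 and -0.02. The calls over all features moved with it, from 546 higher and 791 lower in the mutant to 626 and 589 between the starved groups, from 2078 and 2241 to 3446 and 1138 for starved against nutrient-rich mutant, and from 1432 and 1173 to 2123 and 448 for starved wild type against nutrient-rich mutant.

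**Figure D3:**
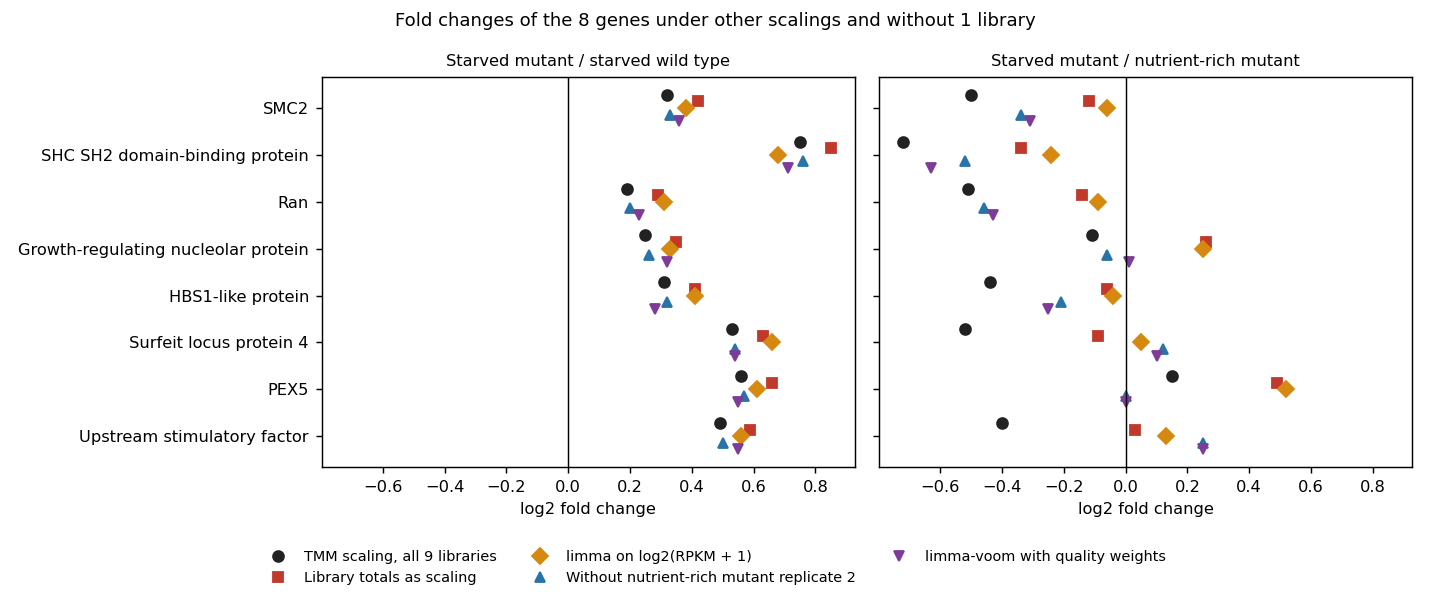
Log2 fold changes of the 8 genes under the main fit and 4 alternatives (symbols), for both comparisons of the starved mutant. All points of the starved comparison lie above 0, while in the food comparison the SURF4 homolog, the nucleolar protein, USF and PEX5 have points on or beyond 0 on the other side from the main fit (for PEX5, at 0).

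The third comparison set the starved wild type beside the nutrient-rich mutant, groups that differ in both genotype and food. It shares its libraries with the other comparisons and the list was chosen for a low level in the starved wild type. Here 4 of 8 genes were called as lower in the starved wild type (6.28% of all features). They were the SHC SH2 domain-binding protein (log2 fold change -1.47 ± 0.28, adjusted p = 0.0106, edgeR), SMC2 (-0.82 ± 0.17, adjusted p = 0.0137), HBS1-like protein (-0.76 ± 0.19, adjusted p = 0.0277) and Ran (-0.7 ± 0.12, adjusted p = 0.0077). All wild-type libraries lay below all nutrient-rich mutant libraries for 7 of the 8 genes (18.8% of all features), the exception being PEX5. The median log2 fold change was -0.79 against -0.02 over all features. With library totals as scaling, 1 gene was called (2.4% of all features as lower) and the median was -0.5. Leaving out starved wild-type replicate 1 left 0 genes called (2.28% of all features), and leaving out replicate 2 left 1 (2.74%). Without nutrient-rich mutant replicate 2, 3 genes were called (7.46%) and the median was -0.55.

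Over the 9 libraries, 7 of the 8 genes varied together. Pearson correlations of log2 CPM between the 28 pairs of genes ran from 0.04 to 0.99 with a median of 0.8, and 21 pairs were above 0.5. The highest was that of the SURF4 homolog and USF (0.99), and every pair below 0.5 included PEX5. Without nutrient-rich mutant replicate 2 the range was 0.32 to 0.94 and 27 pairs were above 0.5. The libraries share their groups, and all 8 genes were chosen for a low level in 1 of these groups. Part of the correlation is therefore built in. No range for pairs of other genes was computed, and this is a description over 9 points.

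Genes with a name and a mean of at least 10 CPM whose profile was most like each member, by Pearson correlation of log2 CPM over the 9 libraries, were looked up. For the SURF4 homolog they were something about silencing protein 10 (0.996) and the spindle checkpoint protein MAD2A (0.994), and for USF protein brambleberry-like (0.996) and the phosphorylated adapter RNA export protein (0.994). For the SHC SH2 domain-binding protein they were mannosidase IA (0.976) and centromere protein K (0.967). For SMC2 they were pre-mRNA-processing factor 19 (0.979) and a mitochondrial poly(A) RNA polymerase (0.977). For Ran they were a gephyrin-like gene (0.982) and the small nuclear ribonucleoprotein Sm D2 (0.98). For HBS1-like protein they were H/ACA ribonucleoprotein subunit 2 (0.996) and a hypothetical protein (0.996), and for the nucleolar protein a CCCH zinc finger protein (0.983) and translation machinery-associated protein 16 (0.956). PEX5 again differed, with tolloid-like protein 1 (0.931) and 1-acyl-sn-glycerol-3-phosphate acyltransferase alpha (0.924). Without nutrient-rich mutant replicate 2 the 16 correlations were 0.917 to 0.995. These genes were picked as the highest of many correlations, so the values describe the 9 libraries only.

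Genes whose names point to a process, protein family or name shared with some of the 8 were collected in 7 lists. Matching by name, as for the surfeit locus genes, does not show that the listed genes work with the 8. Between the starved groups, 0 of 18 tested genes for SMC proteins, condensin and cohesin were called (median log2 fold change 0.20, against 0 over all features). Cohesin subunit SA-2, which helps to hold sister chromatids together, was at 78.8 ± 7.78 CPM in the starved wild type and 83.9 ± 2.69 in the starved mutant (SD, n = 3). SMC6, of the SMC5/6 complex, was at 60.2 ± 6.07 and 74.2 ± 4.89 CPM. Of the 30 tested genes of nuclear transport, the setting in which Ran works, 0 were called (median 0.20), and the most abundant, the import receptors importin-5 (519 ± 11.7 and 586 ± 10.7 CPM) and importin-7 (303 ± 7 and 321 ± 14.4 CPM), were among those that did not pass. Of 7 genes for translation termination and ribosome recycling 0 were called (median 0.14). ERF3A, the release factor GTPase, measured 75.8 ± 3.89 and 80.7 ± 7.55 CPM. ABCE1, which splits ribosomes, measured 178 ± 4.38 and 159 ± 7.09 CPM.

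Of 15 tested genes for peroxisome assembly, 1 was called between the starved groups (median -0.03). It was a gene named as probable PEX13 (Dapma7bEVm023403t1), part of the docking site for PEX5, which rose from 0.0975 ± 0.0952 to 1.9 ± 0.89 CPM (adjusted p = 0.00715, edgeR). Its level was close to the limit of counting, and another gene named PEX13 (Dapma7bEVm003315t1) measured 58.8 ± 4.51 and 57.7 ± 2.73 CPM. The list matched by name to basic helix-loop-helix zipper factors also took in the SREBP cleavage-activating protein and a c-Myc-binding protein-like gene. In that list SREBP1, the regulator of sterol and fat synthesis, measured 136 ± 5.09 and 127 ± 12.5 CPM, and MLX-interacting protein 47.2 ± 3.68 and 48.9 ± 0.3. No gene was called among its 11 genes (median 0.05). The same held for 3 surfeit locus genes (median 0.38), of which SURF6 homolog, a nucleolar protein, measured 70.3 ± 1.41 and 91.8 ± 12.5 CPM. It also held for 9 cytokinesis genes (median 0.44), such as Rac GTPase-activating protein 1 at 30.6 ± 1.53 and 44.8 ± 5.48 CPM and PRC1-like at 33.9 ± 3.57 and 43 ± 1.71 CPM. Of the 93 genes tested over the 7 lists, which hold 5 of the 8 genes themselves, 1 was called between the starved groups (7.16% of all features), 7 between the mutant groups (23.1%) and 15 between starved wild type and nutrient-rich mutant (13.9%). Of those 15, 3 were SMC2, Ran and HBS1-like protein. Single libraries moved these counts. The share of all features called moved too, and is given in brackets. Without nutrient-rich mutant replicate 2, 8 genes were called between the starved groups (13.8%) and 14 between the mutant groups (28.5%). Without its replicate 3 the latter count was 16 (20.9%). Without starved mutant replicate 1 the first count was 2 (8.5%). Without starved mutant replicate 3 there were 3 between the mutant groups (15.2%) and 6 between starved wild type and nutrient-rich mutant (9.04%). In the latter comparison 3 genes were left without starved wild-type replicate 1 (5.54%), and 5 each without replicate 2 (6.31%) and without replicate 3 (6.59%).

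Marker lists of other processes and cell types were summed in the same libraries. That for DNA replication and mitosis shared with the 8 genes a low level in the starved wild type. Of 46 tested genes for DNA replication and mitosis, 4 were called as higher in the starved mutant (2.92% of all features) and 0 as lower, with a median log2 fold change of 0.45 against 0 over all features. They were cyclin-B3 (log2 fold change 1.29 ± 0.32), a cyclin-E-like gene (1.21 ± 0.20), origin recognition complex subunit 6 (0.96 ± 0.24) and the catalytic subunit of DNA polymerase alpha (0.85 ± 0.19), which drive the cell cycle or copy DNA. The list summed to 1430 to 1570 CPM (starved wild type), 1870 to 2360 CPM (starved mutant) and 1700 to 4400 CPM (nutrient-rich mutant). Of its 48 named genes, 2 were at 0 in all libraries. Nutrient-rich mutant replicates 1 and 3 summed to 1910 and 1700 CPM, within or below the range of the starved mutant. The highest value was in replicate 2. The germ line and ovary list summed to 839 to 868, 976 to 1100 and 868 to 1360 CPM, again highest in that replicate, with the lowest nutrient-rich value at the level of the highest starved wild-type one. None of its tested genes was called between the starved groups by edgeR (0 of 16, against 7.16% of all features). At an unadjusted p under 0.05, 2 were higher in the starved mutant (7.56% of all features) and 1 was lower. Of the 17 genes of this list, 0 were at 0 in all libraries. The median level of the 8 genes, each relative to its own mean, was 0.703 to 0.806, 0.884 to 1.05 and 1.07 to 1.65 in the same groups. In nutrient-rich mutant replicates 1 and 3 it was 1.16 and 1.07. The other lists took other courses. Yolk protein genes were lowest in the starved mutant, at 36800 to 47600, 16900 to 18400 and 73600 to 98400 CPM. Muscle genes summed to 11800 to 13000, 12600 to 13400 and 7530 to 10800 CPM, haemocyte genes to 1050 to 1110, 727 to 968 and 1080 to 1360, and genes of neurons and the eye to 2420 to 2590, 2720 to 2930 and 1140 to 1630. Digestive enzymes of the gut summed to 16000 to 26200, 6430 to 12700 and 17000 to 23200 CPM. The part of these lists in the levels of the 8 genes was not tested.

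**Figure D4:**
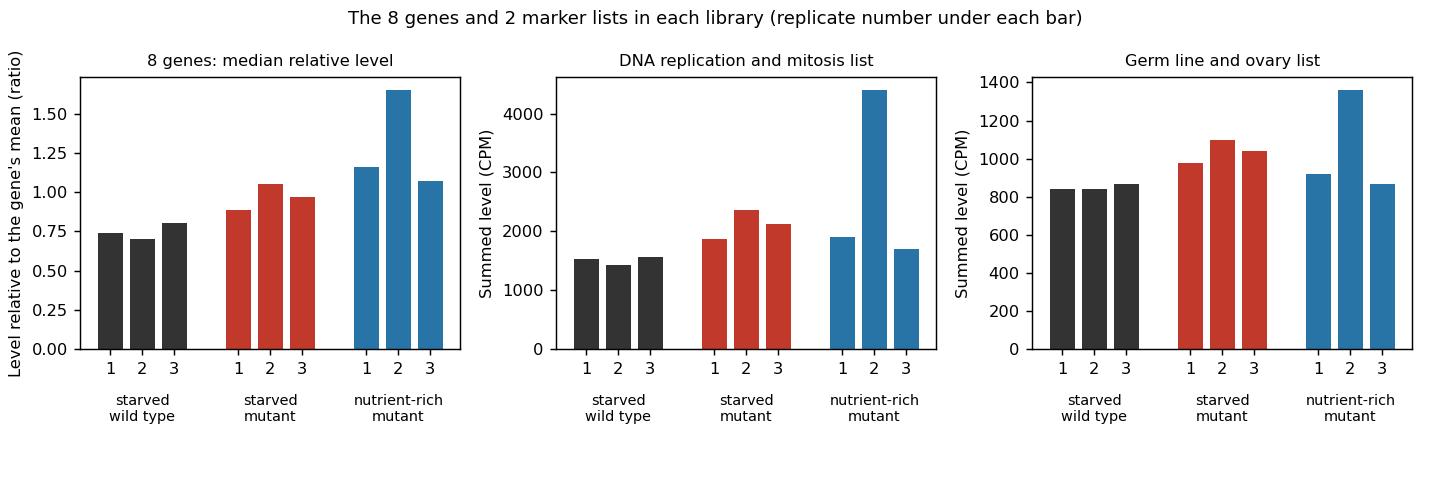
Median level of the 8 genes relative to each gene's mean (left, ratio) and summed CPM of 2 marker lists (middle and right) in each of the 9 libraries, with bars from 0 and the replicate number under each bar. Nutrient-rich mutant replicate 2 is the highest bar in all 3 panels (1.65, 4400 CPM and 1360 CPM), and the starved wild-type bars are the lowest in the left and middle panels.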

How the data were processed

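RNA of 9 libraries (poly(A) mRNA) was sequenced, and CLC Genomics Workbench 12 was used by the authors to map reads to the wFleaBase genome of D. magna (which build was not given in the sources used here). They deposited the read count per feature, not normalized, and RPKM values. Their tables of fold changes and p-values were not used, and 0 other per-sample columns were left unused.

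The test on counts was that of edgeR 4.0.16 under R 4.3.3 (filterByExpr, TMM, quasi-likelihood F-test, 1 fit of 9 libraries with group as factor). Calls needed a p under 0.05, adjusted by Benjamini-Hochberg over all 18675 features, and a 1.5-fold change. SE is the estimate divided by the root of F, and intervals use its t distribution. Log2 CPM for correlations had a prior count of 2. DESeq2 1.42.0 and limma 3.58.1 served as alternatives, with other scalings, no filter, a replicate block and leaving out each library. limma on log2(RPKM + 1) was added after the data were seen. The procedure was tested on simulated data. Levels over genes used RPKM, which corrects for length. The 8 genes, lists and rule for named genes were chosen with earlier results of these data known. The rule took the 8 genes, from each list up to 4 called genes (otherwise the 2 most abundant), for each gene the 2 most correlated named features, and the DNMT genes.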

Additional observations from a re-analysis of the deposited data

How the results depend on the processing

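The higher estimate of the 8 genes in starved mutants than in starved wild-type daphnids held in all 18 alternatives for each gene. Medians were 0.37 to 0.47 when 1 library was left out, and limma-voom called 1 gene (8.96% of all features as higher). The list was chosen for a low level in the starved wild type, and every alternative reuses libraries of that group. The direction is therefore not tested by these fits. For starved against nutrient-rich mutant (median -0.47, 0 called) the median was -0.07 with library totals, -0.12 with limma-voom and 0.01 with RPKM, and -0.61 to -0.13 when 1 library was left out. limma-voom called 1 gene as lower in the starved mutant (16.4% of all features). Leaving out a library gave 0 to 2 (7.98% to 14.1%). Estimates changed sign with library totals (nucleolar protein 0.26, USF 0.03), with limma-voom (SURF4 homolog 0.1, nucleolar protein 0.01, USF 0.25), with RPKM (SURF4 homolog 0.05, nucleolar protein 0.25, USF 0.13), without nutrient-rich mutant replicate 2 (SURF4 homolog 0.12, USF 0.25, PEX5 at 0 after rounding) and without starved mutant replicate 1 (nucleolar protein 0.01). When 1 library was left out, the estimates ran from -0.79 to 0.12 (SURF4 homolog), -0.18 to 0.01 (nucleolar protein), -0.67 to 0.25 (USF) and 0 to 0.31 (PEX5). For starved wild type against nutrient-rich mutant (median -0.79, 4 called) the median was -0.5 with library totals, -0.53 with limma-voom and -0.43 with RPKM, and -0.92 to -0.55 when 1 library was left out. The calls were 1 with library totals (2.4% of all features as lower), 1 with RPKM (1.91%) and 2 with only both groups in the fit (3.74%). They were 5 with DESeq2 (8.53%), and 0 to 5 when 1 library was left out (2.28% to 7.71%). Apart from fits with fewer libraries, the cause was not tested. Where a group kept 2 libraries, these are assumed to vary like the rest.

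The genes of the 7 lists by name called between the starved groups numbered 1 (7.16% of all features). They numbered 2 with RLE size factors, library totals, DESeq2, counts summed per gene or RPKM (6.51% to 11.3%). The number was 7 with only both groups (14.3%), 13 with limma-voom (22.4%), and 1 to 8 when 1 library was left out (2.68% to 13.8%). Between the mutant groups (7) they numbered 4 with only both groups (17.1% of all features), 11 with RPKM (23.6%) and 16 with limma-voom (32.2%). When 1 library was left out they numbered 3 to 16 (15.2% to 28.5%). Between starved wild type and nutrient-rich mutant (15) they numbered 6 with library totals (13.8% of all features), 6 with RPKM (13.2%) and 4 with only both groups (8.82%). When 1 library was left out they numbered 3 to 21 (5.54% to 16.4%). The median percentile of the 8 genes by RPKM was 76, and 87.5 without the filter.

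Deviations of samples of the same number correlated at -0.117 to 0.176 in 9 pairs, against -0.182 to 0.158 in 18 pairs of different numbers. These ranges gave no sign that the numbers pair the samples. With 3 libraries a group they cannot exclude it. With the replicate number as a block, 0, 0 and 4 of the 8 genes were called in the 3 comparisons. Of the genes in the lists by name, 9 were called in the third. Of all features, 5.55%, 20.4% and 10% were called in the 3 comparisons. The low counts of the SHC SH2 domain-binding protein and 3 libraries a group limit detection.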
